A study of Mus musculus with 10 samples.

Results

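The cathepsin genes are the genes for the proteases of the lysosome and of related secretory granules. The 10 described here (Ctsa, Ctsb, Ctsc, Ctsd, Ctsf, Ctsh, Ctsk, Ctsl, Ctss and Ctsz) were taken by gene symbol, from 20692 genes in the count table. All 10 had enough counts to be tested, as had 12001 genes in all. The libraries hold polyadenylated RNA of the ventricular apex (the labels also call the tissue whole heart) from 10 wild-type FVB/NJ mice, an inbred strain, aged 9 weeks, each with a female label. Of these, 5 were sham-operated and 5 were taken 1 week after transverse aortic constriction (TAC), in which the aortic arch is narrowed surgically so that the left ventricle pumps against a higher pressure. The question is how the transcripts of the heart differ under such pressure overload. The sham label comes from the study's design text, which counts animals, so each library is taken as 1 animal. The aligner versions and genome builds in the submitters' processing notes also differ between sham and TAC libraries, and that difference and the operation cannot be told apart. The apex holds cardiomyocytes, fibroblasts, vessel cells and resident immune cells together, so that a difference in the number of cells of a type and a difference in RNA per cell cannot be told apart.

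Cathepsins are made as inactive precursors, carried to the lysosome mostly by mannose 6-phosphate receptors, and activated there by acid pH and by proteolytic removal of the propeptide. Most are cysteine proteases of the papain fold, among them the endopeptidases S, K, L and F and the exopeptidases B, C, H and Z. Cathepsin D is an aspartic protease and cathepsin A a serine carboxypeptidase. Cystatins inhibit the cysteine cathepsins. In heart, cathepsins of cardiomyocytes take part in lysosomal turnover of proteins and organelles, and cathepsins S and K are known as elastin- and collagen-degrading enzymes of macrophages and other cells of the interstitium. Transcription factors of the MiT/TFE family, among them Tfeb, bind an E-box with the core letters CACGTG upstream of many lysosomal genes.

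Of the 10 genes, 8 matched RefSeq promoter entries (GRCm38.p6), with 9 windows in all, since Ctsa has 2 starts, of which 1 follows the match given. Ctsb and Ctsh had no entry. The 250 bases before each start were searched on both strands for CACGTG, for its longer form TCACGTGA, for GAGGAAGT, a sequence bound by the myeloid factor PU.1 and other ETS factors, for GAAA followed after any 2 bases by a second GAAA, bound by interferon regulatory factors, and for TGANTCA, bound by AP-1. Any TCACGTGA is also a CACGTG. The letters CACGTG stood before Ctsa, Ctsd (at 2 places), Ctsf and Ctsl, in 4 of the 9 windows and in 6.02% of all 32851 windows. TCACGTGA stood before Ctsa and Ctsd and in 0.785% of all windows. The spaced GAAA repeat stood before Ctss (2.98% of all windows), GAGGAAGT before Ctsc on the reverse strand (2.44%), and TGANTCA before none of the 8 genes (6.75%). The motifs were chosen with the sequences in view, and matches of letters are a description of these windows, not evidence of binding. Of the genes with an E-box core, Ctsa rose, Ctsf and Ctsl fell and Ctsd did not pass, as described with the values. The part of these letters in the changes was not tested. The stretches with a match are shown with the matched letters in capitals, each read 5′ to 3′ on the strand of its gene.
Ctsa, chr2:164833740-164833772, plus strand: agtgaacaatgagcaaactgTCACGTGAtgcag
Ctsd, chr7:142387899-142387946, minus strand: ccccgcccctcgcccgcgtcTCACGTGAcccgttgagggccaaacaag
Ctsd, chr7:142388047-142388077, minus strand: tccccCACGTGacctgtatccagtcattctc
Ctsf, chr19:4855066-4855111, plus strand: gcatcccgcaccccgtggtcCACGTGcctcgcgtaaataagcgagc
Ctsl, chr13:64370731-64370770, minus strand: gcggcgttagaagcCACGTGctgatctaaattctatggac
Ctss, chr3:95526745-95526785, plus strand: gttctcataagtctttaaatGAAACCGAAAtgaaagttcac
Ctsc, chr7:88277914-88277961, plus strand: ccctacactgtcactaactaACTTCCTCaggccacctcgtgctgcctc

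Each library held between 7410967 and 10126574 counts. The library labelled TAC replicate 1 stood apart from the others and went against its label of female, with 14 counts of Xist, the RNA of the inactive X chromosome, against 1042 to 1561 in the other libraries, and 155 counts of the Y-linked gene Ddx3y, which had none elsewhere. Results for the cathepsin genes are therefore also given without it. Levels are CPM, counts relative to the TMM-scaled total of the library, and a group is given by its mean ± SD over 5 libraries. A log2 change is the log2 ratio of TAC to sham ± its standard error. The adjusted p of a gene is from the quasi-likelihood test of edgeR, corrected by Benjamini-Hochberg over all 12001 genes, and a gene passed at an adjusted p under 0.05.

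The cathepsin genes did not move as 1 family. Ctss, Ctsk, Ctsz, Ctsc and Ctsa rose, Ctsf and Ctsl fell, and Ctsb, Ctsd and Ctsh did not pass the test. Thus 5 of 10 were higher, where 18.8% of all tested genes were, and 2 of 10 were lower, where 17.0% of all tested genes were. Their median log2 change was 0.19, beside 0.00 over all tested genes. In 3 of them (Ctss, Ctsz and Ctsa) every TAC library lay above every sham library, a pattern found in 12.2% of tested genes, and in Ctsl every TAC library lay below every sham library (11.6%). Without the library labelled TAC replicate 1, 4 were higher and 2 lower, with a median of 0.10, where 16.7% of tested genes were higher and 15.1% lower, and again 3 lay wholly above and 1 wholly below sham (13.3% and 12.3% of tested genes). Without sham replicate 4 only 3 were higher, and without TAC replicate 3 or sham replicate 5 only 1 was lower. With scaling by library totals only, the median of all genes moved to 0.11, and 5 cathepsin genes were higher and 1 lower, where 27.1% of tested genes were higher and 9.66% lower.

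**Figure D1:**
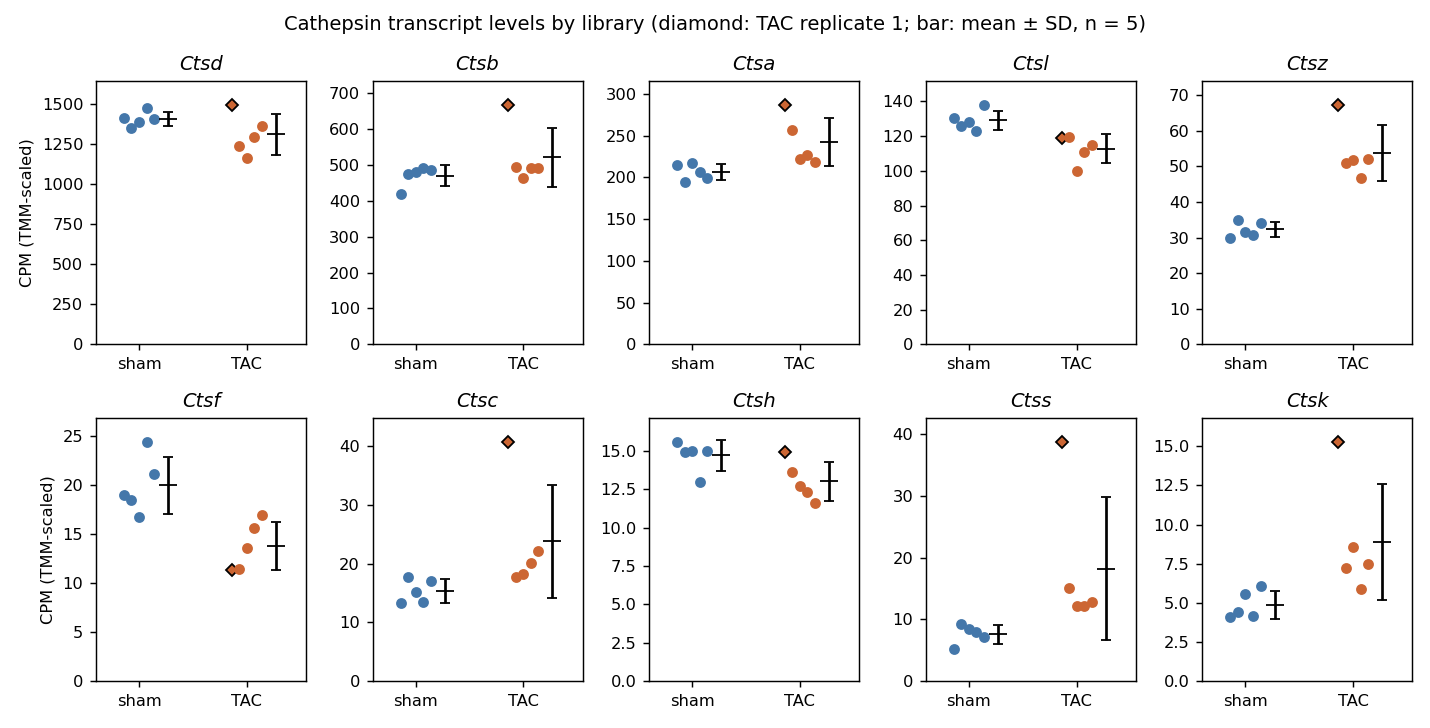
CPM of each cathepsin gene (vertical axes, linear from 0, TMM-scaled) in the 5 sham and 5 TAC libraries; points are libraries, the diamond is TAC replicate 1, and bars are mean ± SD. Ctss, Ctsz and Ctsa show no overlap between groups in the upward direction, and the diamond lies far above the other TAC points in Ctss, Ctsc, Ctsk and Ctsb.

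Among the cysteine endopeptidases, Ctss had the largest rise of the family. Its product, cathepsin S, cleaves the invariant chain of MHC class II in antigen-presenting cells and stays active at neutral pH. In sham replicates 1 to 5 it was at 5.24, 9.15, 8.39, 7.89 and 7.10 CPM, and in TAC replicates 1 to 5 at 38.8, 15.1, 12.1, 12.2 and 12.8 CPM. Every TAC library lay above the highest sham library, and TAC replicate 1 was at 2.98 times the mean of the other 4 TAC libraries. The means were 7.55 ± 1.49 and 18.2 ± 11.6 CPM, with a log2 change of 1.28 ± 0.33 (edgeR adjusted p = 0.00862). Without TAC replicate 1 the log2 change was 0.79 ± 0.14 (adjusted p = 0.00127), so that the call held and the fold went from 2.42 to 1.73. The counts behind these values are 50 to 75 in sham and 100 to 336 in TAC.

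Ctsk encodes cathepsin K, a collagenase best known from osteoclasts. It lies beside Ctss on chromosome 3 (chr3:95499256-95509362 and chr3:95526786-95556403, GRCm38). The sham libraries, replicates 1 to 5, had 4.09, 4.39, 5.55, 4.12 and 6.07 CPM, and the TAC libraries 15.3, 7.2, 8.56, 5.85 and 7.46 CPM. The groups overlapped only through TAC replicate 4, which lay below sham replicate 5. Ctsk rose 1.83-fold (log2 change 0.87 ± 0.24, edgeR adjusted p = 0.0137), and 1.5-fold without TAC replicate 1 (adjusted p = 0.0152). The log2 ratio of Ctsk to Ctss counts, which does not depend on the scaling of libraries, was -0.63 ± 0.36 (SD, n = 5) in sham and -0.95 ± 0.32 in TAC, and the difference of -0.32 was not resolved (exact two-sided permutation test, p = 0.183, adjusted p = 0.209 over 8 ratios; -0.22 without TAC replicate 1).

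Ctsl and Ctsf went the other way. Ctsl encodes cathepsin L, a broadly expressed lysosomal endopeptidase whose loss in mice is known to cause dilated cardiomyopathy. Its level was 130, 126, 128, 123 and 138 CPM in sham replicates 1 to 5 and 119, 119.7, 99.7, 111 and 115 CPM in TAC replicates 1 to 5. All TAC libraries were below all sham libraries, by a small margin, and Ctsl stood at 0.874 of its sham level (log2 change -0.19 ± 0.06, edgeR adjusted p = 0.0211). Without TAC replicate 1 the log2 change was -0.21 (adjusted p = 0.0175). The call depended on scaling: with library totals only, the log2 change was -0.09 (adjusted p = 0.262). The call also ended without TAC replicate 3 (adjusted p = 0.0527) and without sham replicate 5 (adjusted p = 0.0572).

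Ctsf encodes cathepsin F, a cysteine protease whose precursor has a long cystatin-like extension. In replicate order, 1 to 5, the sham libraries had 19.0, 18.5, 16.7, 24.4 and 21.1 CPM and the TAC libraries 11.3, 11.4, 13.6, 15.6 and 16.9 CPM. Only TAC replicate 5 reached the lowest sham library. The level fell from 19.9 ± 2.94 to 13.8 ± 2.48 CPM (log2 change -0.53 ± 0.13, edgeR adjusted p = 0.00685), and the call held without any 1 library (log2 change between -0.61 and -0.45, and -0.46 without TAC replicate 1) and with library totals only (-0.42, adjusted p = 0.0231). TAC replicate 1 was the highest TAC library for Ctss, Ctsk, Ctsc, Ctsz, Ctsa, Ctsb, Ctsd and Ctsh. For Ctsf it was the lowest, at 11.3 CPM, close to TAC replicate 2 at 11.4 CPM.

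Among the exopeptidases, Ctsz had the smallest adjusted p of the 10 genes. Its product, cathepsin Z (also called X), removes single residues from the carboxyl end of proteins and is abundant in monocytes and macrophages. In sham replicates 1 to 5 it was at 30.0, 35, 31.5, 30.8 and 34.2 CPM, and in TAC replicates 1 to 5 at 67.3, 51.1, 51.9, 46.7 and 52.0 CPM. The lowest TAC library lay well above the highest sham library. Ctsz rose 1.67-fold (log2 change 0.74 ± 0.09, edgeR adjusted p = 1.13e-04) and 1.56-fold without TAC replicate 1 (adjusted p = 3.36e-05).

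Ctsc encodes dipeptidyl peptidase 1, which activates the granule serine proteases of neutrophils, mast cells and cytotoxic lymphocytes. The sham libraries, replicates 1 to 5, had 13.3, 17.7, 15.1, 13.5 and 17.1 CPM, and the TAC libraries 40.8, 17.7, 18.3, 20.1 and 22.2 CPM. TAC replicates 2 to 5 lay at or just above the top of the sham range, and TAC replicate 1 at 2.08 times their mean. The log2 change was 0.64 ± 0.21 (edgeR adjusted p = 0.0293) with all libraries and 0.36 ± 0.11 (adjusted p = 0.0201) without TAC replicate 1. The call ended without sham replicates 1, 3 or 4, each left out alone, with adjusted p up to 0.0688. Of 9 granule protease genes that cathepsin C is known to activate, or their relatives (Elane, Prtn3, Gzma, Gzmb, Gzmk, Cma1, Mcpt4, Tpsb2 and Tpsab1), none had enough counts to be tested, and their summed level was 1.03 to 1.95 CPM in sham and 0.731 to 1.43 CPM in TAC.

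Ctsb encodes cathepsin B, which acts both as an endopeptidase and as a dipeptidase on carboxyl ends. Its level was 419, 474, 482, 492 and 486 CPM in sham replicates 1 to 5 and 668, 495, 464, 491 and 492 CPM in TAC replicates 1 to 5. The TAC libraries other than replicate 1 lay within or just above the sham range. Ctsb did not pass (log2 change 0.15 ± 0.09, edgeR adjusted p = 0.228), and its log2 change without TAC replicate 1 was 0.05 ± 0.06. Ctsh encodes cathepsin H, mainly an aminopeptidase, known for processing surfactant proteins in lung. Ctsh did not pass, at 14.7 ± 0.974 CPM in sham and 13.0 ± 1.27 CPM in TAC (log2 change -0.18 ± 0.09, edgeR adjusted p = 0.142; without TAC replicate 1, -0.23 ± 0.09, adjusted p = 0.0604).

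Ctsd, the aspartic member, is the main lysosomal endopeptidase of many tissues. In replicate order, 1 to 5, the sham libraries had 1410, 1352, 1388, 1476 and 1405 CPM and the TAC libraries 1494, 1235, 1163, 1297 and 1365 CPM. TAC replicate 1 was above every sham library, while TAC replicates 2, 3 and 4 were below all of them. Ctsd did not pass (log2 change -0.10 ± 0.07, edgeR adjusted p = 0.271), and without TAC replicate 1 it stood at -0.15 ± 0.06 (adjusted p = 0.0580). Ctsa encodes cathepsin A, also called protective protein, which holds the sialidase Neu1 and the beta-galactosidase Glb1 in a lysosomal complex. In sham replicates 1 to 5 it was at 215, 195, 217, 207 and 199 CPM, and in TAC replicates 1 to 5 at 287, 257, 222, 227 and 219 CPM. The groups did not overlap, although TAC replicate 5 lay just above the highest sham library. Ctsa rose 1.17-fold (log2 change 0.23 ± 0.08, edgeR adjusted p = 0.0298). It no longer passed when any of TAC replicates 1 and 2 or sham replicates 2, 4 and 5 was left out, with 0.16 ± 0.06 (adjusted p = 0.0537) without TAC replicate 1.

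**Figure D2:**
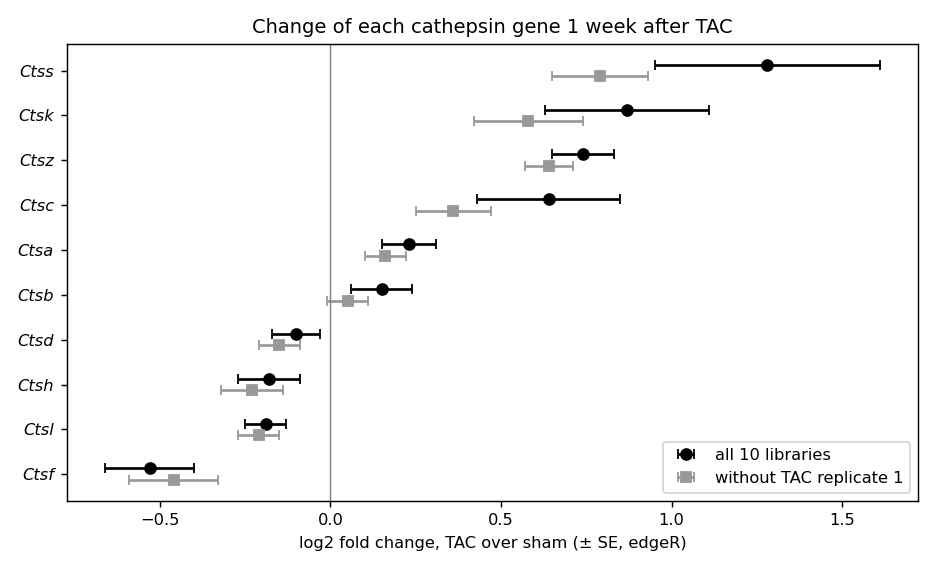
Log2 change of each cathepsin gene, TAC over sham (horizontal axis, ± SE, edgeR), with all 10 libraries (black circles) and without TAC replicate 1 (grey squares). Leaving that library out moves Ctss from 1.28 to 0.79 and Ctsc from 0.64 to 0.36, while Ctsz (0.74 and 0.64) and Ctsf (-0.53 and -0.46) stay close.

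Reads of these unstranded libraries cannot be assigned to a strand, and several cathepsin genes share exon bases with a neighbour in GENCODE M21. Ctsb shares 774 bases with Fdft1 on the opposite strand, which encodes squalene synthase and fell (log2 change -0.53 ± 0.12, edgeR adjusted p = 0.00442). Ctsa shares 495 bases with Pltp and 324 with Neurl2, both on the opposite strand. Pltp, a phospholipid transfer protein, did not pass (0.35 ± 0.14, edgeR adjusted p = 0.0647) and Neurl2 fell (-0.26 ± 0.10, edgeR adjusted p = 0.0493), but not without TAC replicate 1 (adjusted p = 0.0644) or with library totals only (adjusted p = 0.269). The overlap of Ctsz with Nelfcd covers 10 bases. Ctsl shares 1742 bases with an antisense transcript and 395 with a processed pseudogene, and Ctsd 808 with a further gene model on its own strand, all not in the count table. The part of these overlaps in the results was not tested.

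Levels of different genes were compared as CPM per kilobase of exon. In sham hearts the order was Ctsd (598 ± 19.2), Ctsb (77.8 ± 4.89), Ctsa (43.8 ± 2.04), Ctsz (22.4 ± 1.53), Ctsl (19.9 ± 0.848), Ctss (5.56 ± 1.1), Ctsf (3.95 ± 0.582), Ctsh (3.27 ± 0.217), Ctsk (3.20 ± 0.601) and Ctsc (2.64 ± 0.344). The ranges over libraries of Ctsz and Ctsl overlapped, as did those of each neighbouring pair from Ctss down to Ctsc, and neighbours were not tested within libraries. In TAC hearts Ctsd was at 558 ± 53.9 and Ctsb at 86.3 ± 13.7. Ctsa, at 51.4 ± 6.15 with a lowest library of 46.5, just overlapped Ctsz, at 37.3 ± 5.44 with a highest of 46.7. Ctsz no longer overlapped Ctsl, at 17.4 ± 1.26. The lowest library of Ctsl, at 15.4, lay below the highest of Ctss, at 28.6. Ctss (13.4 ± 8.54), Ctsk (5.86 ± 2.45), Ctsc (4.10 ± 1.66), Ctsh (2.89 ± 0.282) and Ctsf (2.73 ± 0.491) followed in this order, each overlapping the next. The first 5 places of both groups were the same with the length of the longest coding transcript in place of the exon union. The lower 5 places were not: in sham Ctsf (10.1 ± 1.48) and Ctsh (9.09 ± 0.602) then stood above Ctss (5.57 ± 1.1), and in TAC the means of Ctsh, at 8.05, and Ctsf, at 6.95, above that of Ctsk, at 5.86. Counts of Ctsd were 60.9% ± 1.03 of all counts of the 10 genes in sham and 56.6% ± 1.89 in TAC, and those of Ctsb 20.4% ± 1.06 and 22.4% ± 1.11. The share of Ctss was 0.327% ± 0.0658 in sham and 0.754% ± 0.370 in TAC. It ranged from 0.232% to 0.407% over sham libraries and from 0.545% to 1.41% over TAC libraries, with the highest in TAC replicate 1.

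Ratios between genes of 1 library show unequal change without any scaling. The log2 ratio of Ctsb to Ctsd was -1.58 ± 0.10 (SD, n = 5) in sham and -1.34 ± 0.12 in TAC, and every TAC library, from -1.47 to -1.16, lay above every sham library, from -1.75 to -1.51. The difference of 0.25 passed (exact two-sided permutation test over 252 divisions of the libraries, p = 0.00794, the smallest this design can give, adjusted p = 0.0159 over 8 ratios). Thus Ctsb and Ctsd changed unequally, although neither passed on its own. The ratio of Ctsb to Ctsl shifted by 0.34 and that of Ctsz to Ctsb by 0.59 (exact permutation tests, adjusted p = 0.0159 for both), and the values without TAC replicate 1 were 0.20 for Ctsb to Ctsd, 0.26 for Ctsb to Ctsl and 0.60 for Ctsz to Ctsb, with adjusted p of 0.0212, 0.0317 and 0.0212 by the same exact test. Of the partners of cathepsin A, Neu1 had 26.9 ± 1.52 CPM in sham hearts and 24.5 ± 1.61 CPM in TAC hearts, and the log2 ratio of Ctsa to Neu1 shifted by 0.36 (exact permutation test, adjusted p = 0.0159), or by 0.29 without TAC replicate 1 (exact permutation test, adjusted p = 0.0212). Glb1 was at 14.6 ± 2.06 CPM and 17.4 ± 2.17 CPM, and the log2 ratio of Ctsa to Glb1 was 3.83 ± 0.21 in sham and 3.80 ± 0.12 in TAC (difference -0.03, exact permutation test, adjusted p = 0.794).

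Of the other 13 cathepsin genes of the table, only Ctso, which encodes a papain-type protease, had enough counts to be tested. It rose from 6.35 ± 0.684 to 8.19 ± 0.937 CPM (log2 change 0.37 ± 0.12, edgeR adjusted p = 0.0282), a call that ended with DESeq2 (adjusted p = 0.0542), with the replicate number as a block (edgeR adjusted p = 0.0646), and when any of TAC replicates 3 and 5 or sham replicates 1, 2, 3 and 5 was left out (adjusted p up to 0.0764). Ctsg, the granule protease of neutrophils, and Ctsj, Ctsm, Ctsr, Cts3, Cts6, Cts7 and Ctsll3 had 0 counts in all 10 libraries. Ctsw, a protease of cytotoxic lymphocytes, had 3 to 9 counts a library.

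Among 16 inhibitor genes, 5 had enough counts to be tested, 1 rose and none fell (median log2 change 0.24, and 0.15 without TAC replicate 1, beside 0.00 for all genes). Over all tested genes 18.8% rose and 17.0% fell. Cst3, cystatin C, the main secreted inhibitor of cysteine cathepsins, did not pass, at 365 ± 25.4 CPM in sham and 379.7 ± 50.5 CPM in TAC (log2 change 0.06 ± 0.08, edgeR adjusted p = 0.628). The log2 ratio of Ctsb to Cst3 was 0.37 ± 0.06 in sham and 0.46 ± 0.04 in TAC, a difference of 0.09 that did not pass the correction (exact permutation test, p = 0.0317, adjusted p = 0.0508) except without sham replicate 4 or TAC replicate 5. Cst6, cystatin E/M, rose from 3.50 ± 0.649 to 7.39 ± 1.35 CPM, with no overlap between groups (log2 change 1.06 ± 0.17, edgeR adjusted p = 5.44e-04). Cstb, the intracellular cystatin B, and Ctla2a and Ctla2b, near copies of each other that resemble the cathepsin L propeptide, did not pass, with log2 changes of 0.24, 0.28 and 0.16. That of Cstb was 0.11 without TAC replicate 1. Reads may be shared between Ctla2a and Ctla2b.

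Of 15 tested genes of lysosomal protein sorting and cathepsin activation, 3 rose and 2 fell (median log2 change -0.02, or 0.08 with library totals only). Of all tested genes, 18.8% rose and 17.0% fell. With library totals only 3 rose and none fell, where 27.1% of all tested genes rose and 9.66% fell. Lgmn, legumain, the protease that cuts several cathepsins into 2 chains, rose from 78.7 ± 13.4 to 112 ± 22.5 CPM (log2 change 0.51 ± 0.14, edgeR adjusted p = 0.0114). Lrp1, an endocytic receptor that takes up secreted lysosomal precursors, rose by 0.51 ± 0.07 on the log2 scale, and Gnptab, which makes the mannose 6-phosphate tag, by 0.37 ± 0.09. Gga1, an adaptor that loads the receptors at the Golgi, and Sort1, sortilin, an alternative sorting receptor, fell by 0.16 and 0.26 on the log2 scale, and neither passed with library totals only. Both mannose 6-phosphate receptor genes, M6pr and Igf2r, were among the 10 that did not pass.

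Of 40 tested genes for other lysosomal hydrolases and their activators, 11 rose and 4 fell, while 25 did not reach the threshold (median log2 change 0.13). Over all tested genes 18.8% rose and 17.0% fell. With library totals only, 19 rose and 3 fell, where 27.1% and 9.66% of all tested genes did. Without TAC replicate 1, 9 rose and 4 fell, where 16.7% and 15.1% of all tested genes did. The 11 that rose include Scpep1 and Prcp, carboxypeptidases related to cathepsin A, with log2 changes of 0.62 ± 0.09 and 1.11 ± 0.18, and Gusb, beta-glucuronidase, with 0.71 ± 0.12 (edgeR adjusted p = 6.81e-04). The 4 that fell were Gaa, the glycogen-degrading glucosidase (-0.33 ± 0.06), Smpd1, acid sphingomyelinase (-0.36), Psap, the saposin precursor (-0.26), and Idua, alpha-iduronidase (-0.32), the last of which did not pass with library totals only (adjusted p = 0.0552). In sham Psap had 1609 ± 65.5 CPM, Smpd1 299, Gaa 260.2 and Idua 30.9 CPM. The 11 genes that rose had 1.32 to 46.7 CPM in sham, with Scpep1, Prcp and Gusb at 13.0, 9.69 and 19.2 CPM. Thus Idua lay within the range of those that rose.

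Of 21 lysosomal membrane genes, 3 rose and 3 fell (median -0.01), 7 rose and 1 fell with library totals only (median 0.09), and 2 rose and 2 fell without TAC replicate 1. Of all tested genes, 18.8% rose and 17.0% fell (median 0.00). With library totals only the shares were 27.1% and 9.66% (median 0.11), and without TAC replicate 1 they were 16.7% and 15.1%. Laptm5, a lysosomal membrane protein of blood cells, rose by 1.08 ± 0.18 on the log2 scale and Cd63 by 0.36 ± 0.11, whereas Npc1, the lysosomal cholesterol transporter, fell from 136 ± 18.9 to 84.1 ± 19.5 CPM (log2 change -0.69 ± 0.14, edgeR adjusted p = 0.00243), and Sidt2, a transporter of the lysosomal membrane, by 0.18 on the same scale. The call of Cd63 ended without sham replicates 3 or 4 (adjusted p up to 0.0525), and that of Sidt2 with library totals only and without TAC replicates 3 or 5 or sham replicates 1, 2 or 5 (adjusted p up to 0.0782). Of 19 tested subunits of the V-ATPase, the proton pump that acidifies lysosomes, 2 rose and 5 fell (median -0.09), and 3 rose and none fell with library totals only (median 0.02). Tcirg1, the a3 subunit, typical of osteoclasts and macrophages, rose by 0.66 ± 0.13 on the log2 scale, and Atp6v1a, of the catalytic sector, by 0.27, a call that ended without TAC replicate 2 or sham replicates 1, 2 or 3 (adjusted p up to 0.0558). Atp6v1e1, Atp6v0a2 and Atp6v1d had log2 changes of -0.23, -0.23 and -0.26. Atp6v0d2 and Atp6v1c2 were too low to be tested.

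Of 15 tested regulators of lysosome number and activity, 1 rose and 5 fell (median -0.15), and 2 rose and 2 fell with library totals only (median -0.04). Of all tested genes, 18.8% rose and 17.0% fell (median 0.00), and 27.1% and 9.66% with library totals only (median 0.11). Mitf and Tfeb, MiT/TFE factors, fell from 56.5 ± 2.96 to 37.3 ± 6.61 CPM (log2 change -0.60 ± 0.10, edgeR adjusted p = 6.93e-04) and from 69.3 ± 2.01 to 59.6 ± 4.28 CPM (-0.22 ± 0.06, adjusted p = 0.0110). The call of Tfeb ended with library totals only (adjusted p = 0.188). Tfe3, a factor of the same family, rose from 34.4 ± 2.84 to 40.8 ± 2.11 CPM (0.24 ± 0.07, edgeR adjusted p = 0.0129). Rragd, a GTPase that recruits mTOR complex 1 to lysosomes, and Mtor had log2 changes of -0.42 and -0.23, and Mtor, unlike Rragd, did not pass with library totals only (adjusted p = 0.0938). Tfec and Rragb were too low to be tested. Of 20 autophagy genes, 1, Becn1, rose and 4 fell (median -0.07), and 2 rose and 2 fell with library totals only (median 0.03). Map1lc3a and Map1lc3b, which encode LC3 proteins of the autophagosome, had log2 changes of -0.36 ± 0.06 and -0.33 ± 0.06, and Rab7, a GTPase of late endosomes, -0.24 ± 0.07, the last not passing with library totals only (adjusted p = 0.0919).

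**Figure D3:**
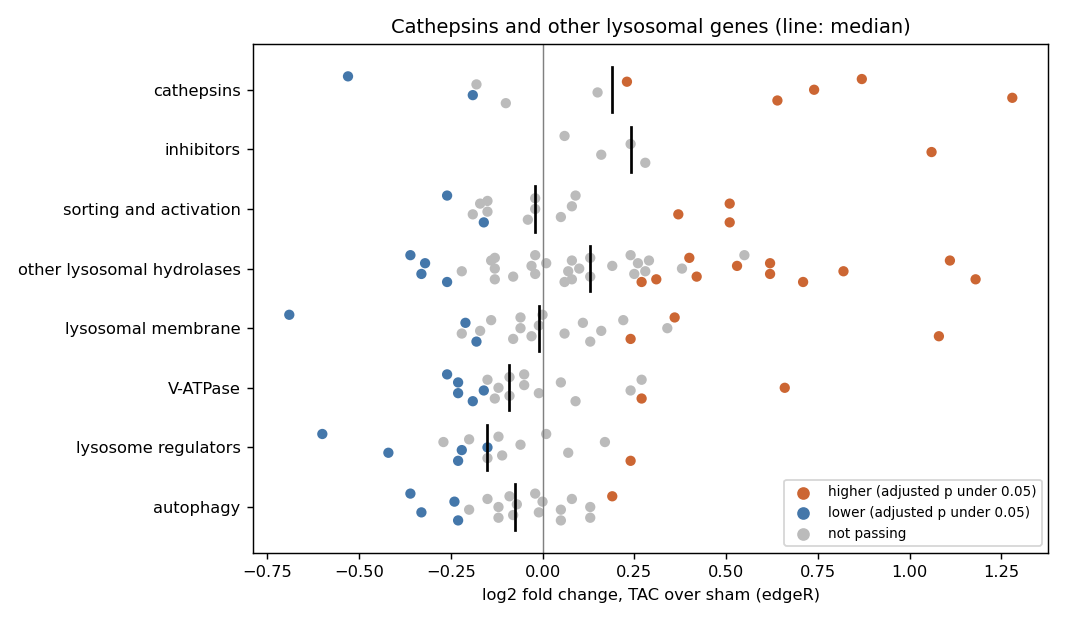
Log2 change, TAC over sham (horizontal axis, edgeR), of every tested gene in the cathepsin family and 7 lists of inhibitor, sorting, lysosomal and autophagy genes; orange points were higher, blue points lower, grey points did not pass, and black lines are medians. The cathepsin points spread from -0.53 to 1.28, with a median of 0.19, beside 0.00 for all tested genes. The inhibitor and hydrolase medians lie at 0.24 and 0.13, and those of sorting and membrane genes at -0.02 and -0.01. The medians of the V-ATPase, regulator and autophagy lists lie at -0.09, -0.15 and -0.07. With library totals only, the cathepsin median is 0.30 and that of all tested genes 0.11. Under that scaling the inhibitor, hydrolase, sorting and membrane medians are 0.35, 0.24, 0.08 and 0.09. Those of the V-ATPase, regulator and autophagy lists are then 0.02, -0.04 and 0.03.

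Markers of other cell types differed between the same libraries. Of 15 tested macrophage markers, 12 rose, none fell, and Cd163, Cx3cr1 and Mertk did not reach the threshold (median log2 change 0.75; 11 rose without TAC replicate 1), and Ccr2, a receptor of monocytes, was too low to be tested. Of all tested genes, 18.8% rose (16.7% without TAC replicate 1) and 17.0% fell. The summed level of all 16 was 283 to 326 CPM in sham and 447 to 473 CPM in TAC replicates 2 to 5, and 745 CPM in TAC replicate 1. C1qa, C1qc and Lyz2, abundant transcripts of cardiac macrophages, rose by 0.70 ± 0.11, 0.74 ± 0.13 and 0.86 ± 0.16 on the log2 scale, and Itgam by 0.86 ± 0.15. Beside the TAC over sham fold of 1.67 for the macrophage sum (1.49 without TAC replicate 1), Ctss stood at 2.42 (1.73), Ctsz at 1.67 (1.56), Ctsk at 1.83 (1.5) and Ctsc at 1.56 (1.28). The sum of the fibroblast markers described below stood at 3.28 (2.52). TAC replicate 1 was at 1.63 times the mean of the other TAC libraries for the macrophage sum and at 2.51 times for the fibroblast sum. For Ctss, Ctsk, Ctsc and Ctsz it was at 2.98, 2.1, 2.08 and 1.33 times. Against Csf1r, a receptor among these macrophage markers, the log2 ratio of Ctss counts was -2.71 ± 0.20 in sham and -2.28 ± 0.42 in TAC. The difference of 0.43 did not pass (exact permutation test, p = 0.0635, adjusted p = 0.0847). It was 0.27 without TAC replicate 1 and 0.52 without TAC replicate 3, and passed only in the latter case (exact permutation test, adjusted p = 0.0381). The part of macrophage number in the rise of Ctss, Ctsz, Ctsk and Ctsc was not tested.

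Fibroblast markers also rose: 9 of 10 passed upward, none fell, and Tcf21 did not pass (median 0.66; 8 rose without TAC replicate 1). Their summed level was 1122 to 1601 CPM in sham, 3217 to 3803 CPM in TAC replicates 2 to 5 and 8900 CPM in TAC replicate 1, led by Col1a1, Col3a1, Col1a2 and Postn, with log2 changes of 2.14, 2.12, 2.09 and 3.11. Of 10 cardiomyocyte markers, 6 fell and none rose (median -0.39). Pln, Tnnt2, Tnni3 and Atp2a2 had log2 changes of -0.59, -0.47, -0.60 and -0.52, and the summed level was 100755 to 121615 CPM in sham and 73946 to 99416 CPM in TAC. Actc1, Ttn, Mybpc3 and Tnnc1 did not pass, with log2 changes of -0.12, 0.00, -0.06 and -0.11. Over all tested genes, 18.8% rose and 17.0% fell, or 16.7% and 15.1% without TAC replicate 1. With library totals only, 13 macrophage and 10 fibroblast markers rose and 5 cardiomyocyte markers fell. Under that scaling 27.1% of all tested genes rose and 9.66% fell. The part of fibroblast and cardiomyocyte numbers in the cathepsin results was not tested.

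Markers of other immune cells were low. Of 10 lymphocyte markers, only Cd4 could be tested, and it rose (1.11 ± 0.26, edgeR adjusted p = 0.00509). The summed level of the 10 was 3.09 to 5.78 CPM over all libraries. Of 6 neutrophil markers, with a sum of 4.88 to 12.9 CPM, 2 could be tested: Csf3r rose and Mmp9 did not pass. S100a8, S100a9, Retnlg and Ngp were too low to be tested. Of these, S100a8, Retnlg and Ngp had at most 0.801 CPM in any library. Of 6 mast cell markers, only Kit could be tested, and it rose (1.22 ± 0.20, edgeR adjusted p = 5.81e-04), while the other 5 (Cpa3, Mcpt4, Cma1, Tpsb2 and Ms4a2) had at most 0.854 CPM in any library. Of 8 endothelial markers, Cdh5 and Pecam1 rose (0.54 ± 0.07 and 0.28 ± 0.07 on the log2 scale), and Egfl7 (0.17) and Tie1 (0.19) were among the 6 that did not pass. Of 8 smooth muscle and pericyte markers, Cspg4 and Notch3 rose (0.63 ± 0.08 and 0.33 ± 0.05), and Rgs5 (0.16) and Acta2 (-0.32) were among the 6 that did not pass. None fell in either list, where 18.8% of all tested genes rose and 17.0% fell. Without TAC replicate 1, 3 rose in each list, where 16.7% of all tested genes did. With library totals only, 4 endothelial and 3 smooth muscle and pericyte markers rose, where 27.1% of all tested genes did.

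Cathepsin S cleaves the invariant chain of class II molecules, encoded by Cd74. Of 6 tested class II genes, none rose or fell by edgeR, DESeq2 or limma-voom, and 0 had an unadjusted p under 0.05 in edgeR. Their median log2 change was 0.16, and -0.38 without TAC replicate 1. By edgeR 18.8% of all tested genes rose and 17.0% fell. Cd74 was at 59.2 to 137 CPM in sham, at 48.4 to 76.7 CPM in TAC replicates 2 to 5 and at 219 CPM in TAC replicate 1. Thus TAC replicate 1 was the highest library for both Cd74 and Ctss, while the other 4 TAC libraries were above all sham libraries for Ctss and within or below the sham range for Cd74. H2-Aa, which encodes a class II chain, was at 9.10 ± 3.38 CPM in sham and 10.2 ± 8.42 CPM in TAC. H2-Eb1, H2-DMa and Ciita, the class II transactivator, had mean levels of 1.35 to 2.78 CPM in sham, and H2-DMb1 was too low to be tested.

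**Figure D4:**
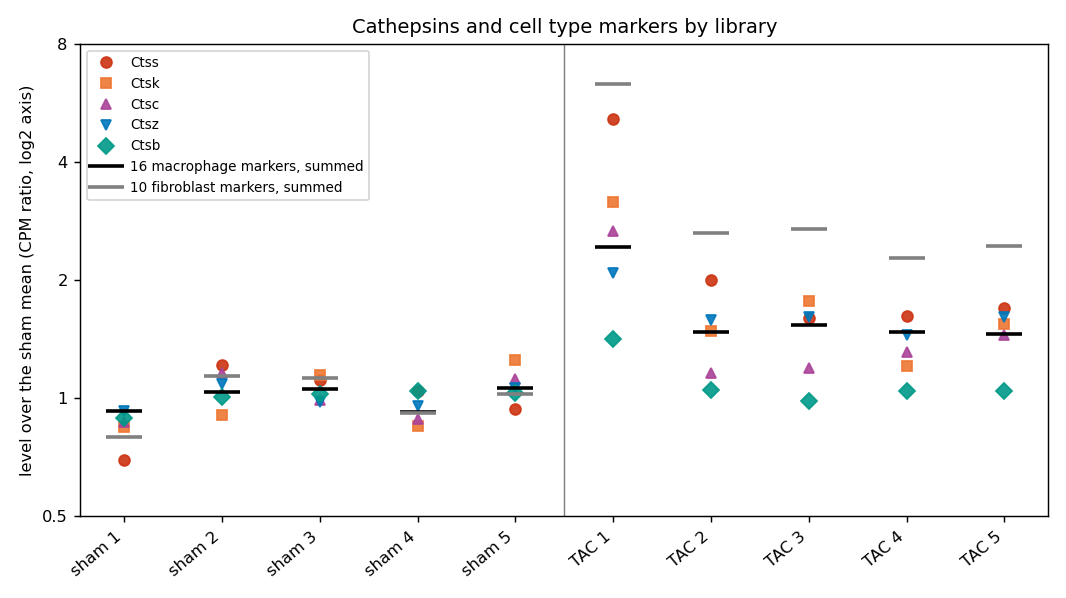
Level of Ctss, Ctsk, Ctsc, Ctsz and Ctsb and of the summed macrophage and fibroblast markers in each library, divided by the sham mean (vertical axis, CPM ratio on a log2 scale; 1 point or bar per library and measure). TAC replicate 1 is the highest library for all 7 measures, and in TAC replicates 2 to 5 Ctss and Ctsz lie above all sham values while Ctsb stays near 1.

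The genes most like each cathepsin were taken as those with the highest Pearson correlation of log2 CPM over the 10 libraries, among 10775 genes. This is a description, since the libraries fall into 2 groups and 1 library stands apart, and both enter such values. For Ctss they were Npc2, which carries cholesterol inside lysosomes (r = 0.98), and Map3k14 (r = 0.97). Ctsz was most like Fcgr3, an Fc receptor of myeloid cells, and Col18a1, a basement membrane collagen (r = 0.99 for both). Ctsc was most like Sirpa (r = 0.97) and Apoe (r = 0.96), and Ctsb like Apoe and Akr1a4 (r = 0.94 for both). Ctsk was most like Car11 (r = 0.97) and Mmp23, a matrix metalloproteinase (r = 0.96), and Ctsa like Actr1b (r = 0.97) and Il1r1 (r = 0.96). Ctsf was most like Rufy1, an endosomal protein (r = 0.99), and Cmbl (r = 0.98), Ctsl like Insig2 (r = 0.96) and Hk1, hexokinase 1 (r = 0.95), Ctsh like Psmd5 (r = 0.94) and Nat6 (r = 0.92), and Ctsd like Isoc2b and Zkscan14 (r = 0.92 for both).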

How the data were processed

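The authors deposited raw read counts, whole numbers per Ensembl gene. According to the submitters' processing notes, sham libraries were made with TopHat2 2.0.10, Bowtie2, HTSeq and build mm10. The same notes name TopHat 1.3.0, Bowtie and HTSeq with both mm10 and mm9 for TAC libraries. The file header names GRCm37. Counter settings and annotation release: not given in the sources used here. The row of totals was left out.

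All 12001 genes past filterByExpr (minimum count 10, minimum total 15) were fitted in edgeR 4.0.16 (R 4.3.3, limma 3.58.1), with TMM and group as the sole term. Correlations used log2 CPM with a prior count of 2, and ratios used counts plus 0.5. Gene lengths and overlaps are from GENCODE M21 (GRCm38), which held 94.6% of the IDs, and promoters from RefSeq GRCm38.p6. The fit was tested on simulated data, in which all libraries of a group had the same expected levels. No library stood apart there as TAC replicate 1 did here, so that test does not cover such a library. No 2 libraries of a group were as close as repeat sequencing of 1 library would be (chi-square per gene at least 2.674). This check cannot tell whether 2 libraries came from the same animal, since separate preparations also differ. DESeq2 1.42.0 was an alternative. P-values measure the spread between libraries, taken as animals.

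The members and lists were chosen with earlier results of these data known. Named are the 10 cathepsins, up to 4 genes per list with the smallest adjusted p, those not tested or not passing where 5 or fewer, the genes of 8 ratios, the 2 genes most like each cathepsin and overlapping genes. Sort1, Smpd1, Psap, Idua, Tfe3, Atp6v1a, Cd74, M6pr, Igf2r and Ctsw were named after their values were seen.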

Additional observations from a re-analysis of the deposited data

Results flagged for a closer look

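A library is named here where it lay far from the other 4 of its group, by Dixon's test at the 95% level, which marks about 1 in 20 groups by chance. Of 232 groups of 5 values examined, many of them correlated, 44 had such a value. The library labelled TAC replicate 1, whose Xist and Y-linked counts go against its female label, was the high one in most cases. Among the cathepsins it had 668 CPM of Ctsb (464 to 495 in the other TAC libraries), 40.8 of Ctsc (17.7 to 22.2), 15.3 of Ctsk (5.85 to 8.56), 38.8 of Ctss (12.1 to 15.1) and 67.3 of Ctsz (46.7 to 52.0). Among other lysosomal genes and inhibitors it had 468 CPM of Cst3, 72.6 of Laptm5, 121 of Cd63, 21.2 of Glb1 and 72.1 of Npc2, and 502 CPM summed over the inhibitors. Among marker genes it had 89.3 CPM of C1qa, 101 of C1qc, 16.4 of Itgam, 144 of Lyz2, 123 of Csf1r, 22.4 of Cx3cr1, 3054 of Col3a1, 1847 of Col1a2 and 2998 of Col1a1, with sums of 745 CPM for macrophage and 8900 for fibroblast markers. Among class II genes it had 5.89 CPM of Ciita, 6.24 of H2-DMa, 25.1 of H2-Aa and 219 of Cd74, and a sum of 289.

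Other libraries were named less often. Sham replicate 1 was low for Ctsb (419 CPM, against 474 to 492) and high for Rab7 (371). Sham replicate 2 was high for H2-Aa (15.0), Acta2 (508) and the summed smooth muscle and pericyte markers (1414) and low for Ctla2b (0.976) and Cd163 (7.56). Sham replicate 4 was low for Ctsh (13.0) and Idua (26.2) and high for Ctso (7.55), and sham replicate 5 was high for Itgam (7.67). TAC replicate 3 was low for Gaa (184), Mtor (124) and Ttn (12425) and high for Cd163 (16.4), TAC replicate 2 was high for Tnnc1 (3736), and TAC replicate 4 was low for Cst6 (5.01).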

How the results depend on the processing

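The number of cathepsin genes called was 5 higher and 2 lower with RLE size factors, DESeq2, limma-voom, no filter, a stricter filter and replicate number as a block, and 4 and 2 with robust dispersion, where Ctsc did not pass (edgeR adjusted p = 0.0506). With library totals only it was 5 and 1. Leaving out each library in turn gave 3 to 5 higher, with 3 without sham replicate 4, and 1 to 2 lower, with 1 without TAC replicate 3 or sham replicate 5. Over all genes the same sets gave 1876 to 2186 higher and 1713 to 1975 lower, and library totals only gave 3257 higher and 1159 lower. Ctss, Ctsk, Ctsz and Ctsf kept their calls in all of these settings. The replicate number was not shown to pair the libraries: deviations of same-numbered libraries correlated at -0.0916 to 0.222, and the block gave 2113 higher and 1924 lower genes. For the ratios the block left shifts of 0.25 (Ctsb to Ctsd), 0.34 (Ctsb to Ctsl), 0.59 (Ctsz to Ctsb) and 0.36 (Ctsa to Neu1), whose sign-flip tests over 5 pairs cannot reach the threshold. Over the sets without 1 library, shifts ranged from 0.07 to 0.11 for Ctsb to Cst3, which passed without sham replicate 4 (adjusted p = 0.0254) or TAC replicate 5 (0.0381), and from 0.27 to 0.52 for Ctss to Csf1r, which passed without TAC replicate 3 (adjusted p = 0.0381), all by exact permutation. Counts plus 2 changed no call of a ratio. The causes of these changes were not tested. Ctsk had 36 to 132 counts a library, and 12 of 13 cathepsin genes outside the 10 were too low to be tested.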
